A study of Mus musculus with 60 samples.

Results

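The genes followed here are Rnaset2b, Tagap1, Fndc1, Pkmyt1, Paqr4, Abca3 and Abca17, 7 protein-coding genes of mouse chromosome 17 among the 21999 genes of the deposited table. All lie between the start of the chromosome and Glo1, and they were chosen because their levels differed between Glo1 knockout (KO) and wild-type (WT) mice in these same libraries. The KO against WT values below therefore describe how the genes were picked and carry no test, whereas diet and brain region played no part in the choice and were tested. Because the size of the genotype gap differs between regions, region values are given within each genotype as well as pooled. Only the pooled region values are independent of the choice, since a region contrast within 1 genotype holds part of that gap.

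Poly(A) RNA of 3 brain regions, the prefrontal cortex (Pfc), striatum (Str) and hippocampus (Hip), was sequenced in 20 mice. From week 8 to week 12 of life, WT and Glo1 KO mice were kept on food with a normal vitamin B6 content (1.4 mg per 100 g) or on vitamin B6-lacking food (5 µg per 100 g). Each of the 12 combinations of region, genotype and diet held 5 libraries from 5 mice, and every mouse gave 1 library per region. The labels give neither the strain of the mice nor how the KO allele was made, and the 30 KO libraries form batch 1 while the 30 WT libraries form batch 2. Genotype and batch therefore cannot be told apart in any KO against WT value.

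Glo1 encodes glyoxalase I, the enzyme that clears methylglyoxal, a reactive by-product of glycolysis. Its count lay between 0 and 10 in the KO libraries and between 299 and 734 in the WT libraries, and no library contradicted its label. Regional markers matched the labels too: summed striatal genes lay between 4977 and 6588 CPM in the Str and at most at 147 CPM elsewhere, and cortical genes between 547 and 646 CPM in the Pfc and at most at 184 CPM elsewhere. Library totals lay between 7640047 and 13928265 counts, at which 3 counts correspond to 0.215 to 0.393 CPM (counts scaled to a common library size). Values under about that level rest on a handful of reads. The median RNA integrity number per region lay between 8.35 and 8.7 in WT and between 8.55 and 8.85 in KO libraries. In the Pfc the median total was 12310267 in KO and 10100824 in WT libraries. The part of depth and RNA quality in the KO against WT values was not tested beyond the fits that scale by depth or carry the integrity number.

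The genes belong to unrelated families. Rnaset2b encodes an acid ribonuclease of the T2 family, enzymes that degrade RNA in lysosomes, and loss of the human enzyme causes a leukoencephalopathy. Tagap1 belongs with Tagap to a family of GTPase-activating proteins named for their induction in activated T cells. Fndc1 encodes a large protein with fibronectin type III domains. Pkmyt1 encodes a membrane-bound kinase that holds the cell-cycle kinase CDK1 inactive before mitosis. Paqr4 encodes a membrane protein of the progestin and adipoQ receptor family. Abca3 and Abca17 encode ABC transporters of subfamily A, of which Abca3 is best known for moving lipids into the lamellar bodies of lung cells.

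In GRCm38 coordinates (GENCODE vM21) the genes fall into 2 clusters before Glo1, which lies at chr17:30584936-30626871. The far cluster holds Tagap1 (chr17:6955011-6961156, minus strand), Rnaset2b (chr17:6970634-7011299, plus strand) and Fndc1 (chr17:7738569-7827302, minus strand), 22.8 to 23.6 Mb before Glo1. The near cluster holds Pkmyt1 (chr17:23726336-23736735, plus strand), Paqr4 (chr17:23736186-23740867, minus strand), Abca17 (chr17:24264259-24351068, minus strand) and Abca3 (chr17:24351950-24410201, plus strand), 6.23 to 6.86 Mb before Glo1. A distance of 16 Mb separates Fndc1 from Pkmyt1. Some members are direct neighbours: Pkmyt1 and Paqr4 run towards each other and overlap by 550 bp, of which 319 bp are exonic in both genes, and Abca17 and Abca3 run apart from starts separated by 881 bp.

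Reads of 75 bases cannot always be assigned to a single member, because Tagap1 and Rnaset2b each have a near-identical copy on the same chromosome. Tagap lies at chr17:7926000-7934897 (plus strand) and Rnaset2a at chr17:8115445-8148097 (minus strand). Of the 75-base stretches in the annotated transcripts, 66.5% of those of Tagap1 and 51.4% of those of Rnaset2b also occurred in transcripts of another gene. For Tagap1, 52.3% occurred in Tagap and 15% in the antisense transcript Gm49719. For Rnaset2b, 49.6% occurred in Rnaset2a. The share with any other gene was 8.06% for Abca3, mostly through the antisense transcript D330041H03Rik. It was 6.81% for Paqr4, 4.46% for Pkmyt1, 1.27% for Abca17 and 0% for Fndc1. The strand setting of the counting is not given in the sources used here, so reads from the overlap of Pkmyt1 and Paqr4, or from an antisense transcript, cannot be told from reads of the gene itself.

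The following stretches show how little separates Tagap1 from Tagap, which bears on every value of Tagap1 below. Over 1364 aligned coding bases the 2 genes differed at 6, an identity of 99.56%, and 856 of 1290 aligned windows of 75 bases were identical. A window with the most differences, coding bases 393 to 467 of Tagap1 and 1020 to 1094 of Tagap, held 2 of them, shown in capitals (5′ to 3′, from GENCODE vM21):
Tagap1: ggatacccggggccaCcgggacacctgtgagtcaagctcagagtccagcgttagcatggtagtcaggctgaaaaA
Tagap: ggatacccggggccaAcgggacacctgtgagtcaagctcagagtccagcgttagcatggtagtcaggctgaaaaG

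For Rnaset2b and Rnaset2a, the 780 coding bases were identical throughout, so that reads can be told apart only outside the coding sequence. The opening 75 coding bases, shared by both genes, are:
Rnaset2b: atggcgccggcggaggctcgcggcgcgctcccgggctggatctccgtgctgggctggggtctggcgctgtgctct

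The bases next to the starts of Abca17 and Abca3 are shown because these neighbours, transcribed away from each other, differed between genotypes in opposite directions. The middle of the interval between them is not printed. The letters are upstream bases of each gene on its own strand (RefSeq, GRCm38.p6), with matches to CCAAT on either strand in capitals, chr17:24351773-24351949 for Abca3 and chr17:24351069-24351309 for Abca17:
Abca3: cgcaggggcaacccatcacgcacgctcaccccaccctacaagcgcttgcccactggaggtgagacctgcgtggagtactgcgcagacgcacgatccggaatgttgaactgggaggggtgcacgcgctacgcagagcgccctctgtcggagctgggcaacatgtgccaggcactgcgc
Abca17: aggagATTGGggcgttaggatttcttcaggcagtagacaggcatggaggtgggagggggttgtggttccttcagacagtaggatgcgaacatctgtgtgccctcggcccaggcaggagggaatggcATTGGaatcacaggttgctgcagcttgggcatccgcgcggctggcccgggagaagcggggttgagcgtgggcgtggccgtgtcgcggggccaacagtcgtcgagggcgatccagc

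The Abca17 stretch held 2 matches to CCAAT and none to TATAAA or GGGCGG, and the Abca3 stretch held none of the 3 motifs. Among 32851 windows of 250 bases before the starts of mouse genes, CCAAT occurred on either strand in 33.8%, GGGCGG in 32.7% and TATAAA in 12.4%. The windows printed are shorter than 250 bases, and the full 250-base window of Abca3 held 1 match to GGGCGG outside the part printed. A match of letters is not a binding site.

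Per length of transcript, Paqr4 had the highest level of the 7 genes, with a median of 10.1 RPKM (the count divided by gene length and by library size) over the 60 libraries. Abca3 followed with 5.83, Tagap1 with 2.12 and Fndc1 with 0.687 RPKM. Pkmyt1 with 0.324, Rnaset2b with 0.151 and Abca17 with 0.0652 RPKM were near the limit of detection in many libraries. Each of these 3 low genes had libraries with 0 counts, which allow a level of up to 3 counts each. In bulk tissue, fewer cells that express a gene and less RNA per cell cannot be told apart.

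**Figure D1:**
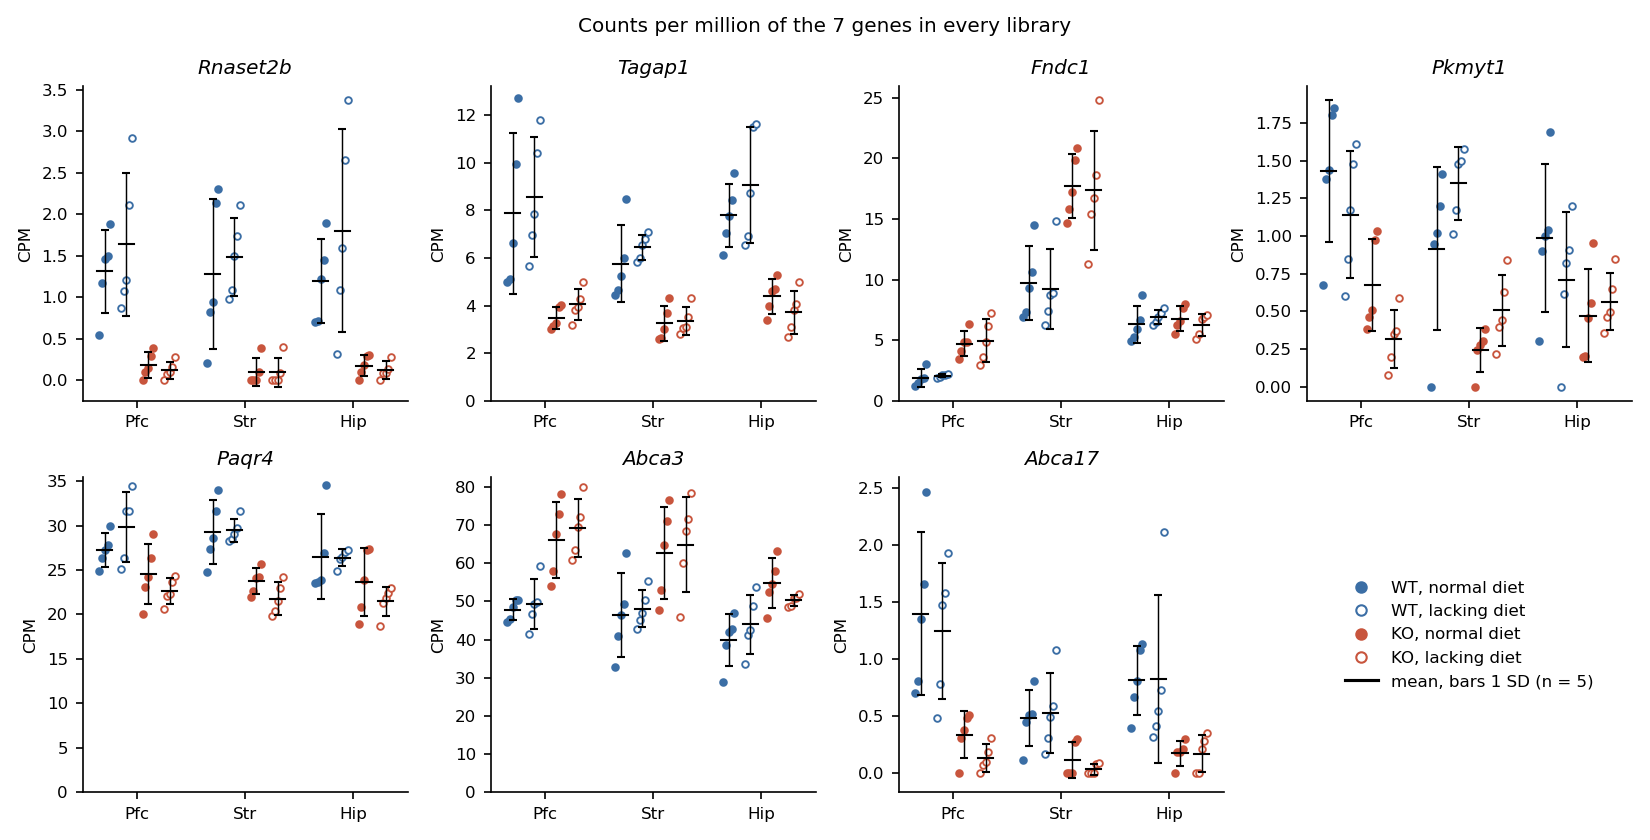
Scaled counts (CPM, linear axes, 1 panel per gene) in each library of the prefrontal cortex (Pfc), striatum (Str) and hippocampus (Hip). Points are libraries, horizontal lines means and bars 1 SD (n = 5). Rnaset2b, Tagap1, Pkmyt1, Paqr4 and Abca17 lie lower in KO (red) than in WT (blue) and Abca3 higher, whereas Fndc1 lies higher in KO in the Pfc and Str and at the same level in the Hip.

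KO mice had lower values than WT mice for Rnaset2b, Tagap1, Pkmyt1, Paqr4 and Abca17 and higher values for Abca3 in each region, and higher values of Fndc1 in the Pfc and Str. Over both diets, 6 of the 7 genes tested in the Pfc were past an adjusted p of 0.05 in edgeR's quasi-likelihood test, all but Paqr4, where 0.673% of all genes tested were. In the Str 4 of 6 were past it (Rnaset2b, Tagap1, Fndc1 and Paqr4; 0.203% of all genes), and in the Hip 2 of 5 (Rnaset2b and Tagap1; 0.164% of all genes). Since the genes were picked from this contrast, the counts describe the choice. The remaining members failed the filter on low counts, Abca17 in the Str and Hip and Pkmyt1 in the Hip. Near the threshold in the Pfc, the adjusted p was 0.00972 for Pkmyt1 and 0.057 for Paqr4.

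Rnaset2b had the largest fold difference of the tested members in each region. In the Pfc the WT libraries held 0.542, 1.17, 1.46, 1.5 and 1.88 CPM on the normal diet and 0.869, 1.07, 1.21, 2.11 and 2.92 CPM on the lacking diet. The KO libraries held 0, 0.0975, 0.152, 0.292 and 0.388 CPM on the normal diet and 0, 0.0737, 0.0996, 0.156 and 0.276 CPM on the lacking diet, from 0 to 5 counts each. Every KO library of the Pfc lay below every WT library. The mean was 1.47 ± 0.686 CPM in WT and 0.153 ± 0.128 CPM in KO (SD, n = 10), a log2 fold change of -3.15 (standard error, SE, 0.388).

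In the Str and Hip the picture of Rnaset2b was similar. The WT libraries of the Str held 0.203 to 2.3 CPM with a median of 1.3, and 6 of 10 KO libraries held 0 counts, with a highest value of 0.398 CPM. The overlap came from a single WT library on the normal diet, that of mouse 317 with 2 counts, which lay below 1 KO library of that diet. In the Hip the WT libraries held 0.314 to 3.37 CPM (median 1.33) and the KO libraries 0 to 0.3 CPM (median 0.124), without overlap. The log2 fold change was -3.42 (SE 0.517) in the Str and -3.18 (SE 0.442) in the Hip.

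Rnaset2a, the copy with the same coding sequence, was not lower in KO to a like extent. It failed the filter on low counts in the Pfc and Hip. In the Hip on the lacking diet all 5 of its KO libraries (8 to 13 counts) lay above all 5 WT libraries (2 to 7 counts). This held for 0.56% of all genes tested there, a share that does not include Rnaset2a. In the Hip on the normal diet, and in the Pfc and Str on both diets, its genotypes overlapped. Its median was 0.713 CPM in WT and 0.425 CPM in KO libraries of the Pfc, 0.545 and 0.522 CPM in the Str, and 0.431 and 0.898 CPM in the Hip. The summed level of both genes was therefore also lower in KO: the medians were 2.44 CPM in WT and 0.502 CPM in KO in the Pfc, 1.83 and 0.799 CPM in the Str, and 1.7 and 0.986 CPM in the Hip. The share of the summed counts given to Rnaset2a was 31.6% in WT and 74% in KO libraries of the Pfc. It was 33.6% and 84.2% in the Str, and 25.7% and 83.8% in the Hip. How reads of the shared coding sequence were handled by the counting is not given in the sources used here.

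Tagap1 was lower in KO mice at a level well above the counting floor. In the Pfc the WT libraries held 4.97, 5.1, 6.63, 9.94 and 12.7 CPM on the normal diet and 5.67, 6.97, 7.84, 10.4 and 11.8 CPM on the lacking diet. The KO libraries held 3.02, 3.14, 3.26, 3.92 and 4.03 CPM and 3.2, 3.83, 3.95, 4.27 and 4.98 CPM, in the same order of diets. Within each diet the groups did not overlap, and the spread among WT mice was the wider. Mean values were 8.21 ± 2.83 CPM in WT and 3.76 ± 0.614 CPM in KO (SD, n = 10), a log2 fold change of -1.14 (SE 0.165).

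In the Str Tagap1 ranged from 4.43 to 8.45 CPM (median 6) in WT and from 2.61 to 4.33 CPM (median 3.07) in KO libraries. In the Hip it ranged from 6.13 to 11.6 CPM (median 8.09) in WT and from 2.68 to 5.3 CPM (median 4.01) in KO libraries. The genotypes did not overlap in either region, and the log2 fold changes were -0.90 (SE 0.132) and -1.04 (SE 0.137). Tagap1 was the only one of the 7 genes whose groups of 5 stayed apart in all 6 comparisons of region and diet.

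Tagap was higher where Tagap1 was lower, and the summed level of these near-copies had similar medians in both genotypes. Tagap, no member itself, was higher in KO in edgeR's test in the Pfc (log2 fold change 2.27, SE 0.303, adjusted p = 3.83e-05), Str (1.85, SE 0.289, adjusted p = 0.00111) and Hip (2.10, SE 0.286, adjusted p = 0.000289). Tagap1 and Tagap summed to a median of 8.32 CPM in WT and 8.22 CPM in KO in the Pfc, 7.26 and 7.18 CPM in the Str, and 9.07 and 9.24 CPM in the Hip. What differed was the share of the summed counts given to Tagap, which was 9.64% in WT and 53.9% in KO libraries of the Pfc, 15.1% and 54.6% in the Str, and 12.4% and 55.5% in the Hip. With 99.56% identity in the aligned coding sequence, whether the level of Tagap1 or the assignment of its reads differed between the genotypes was not tested.

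**Figure D2:**
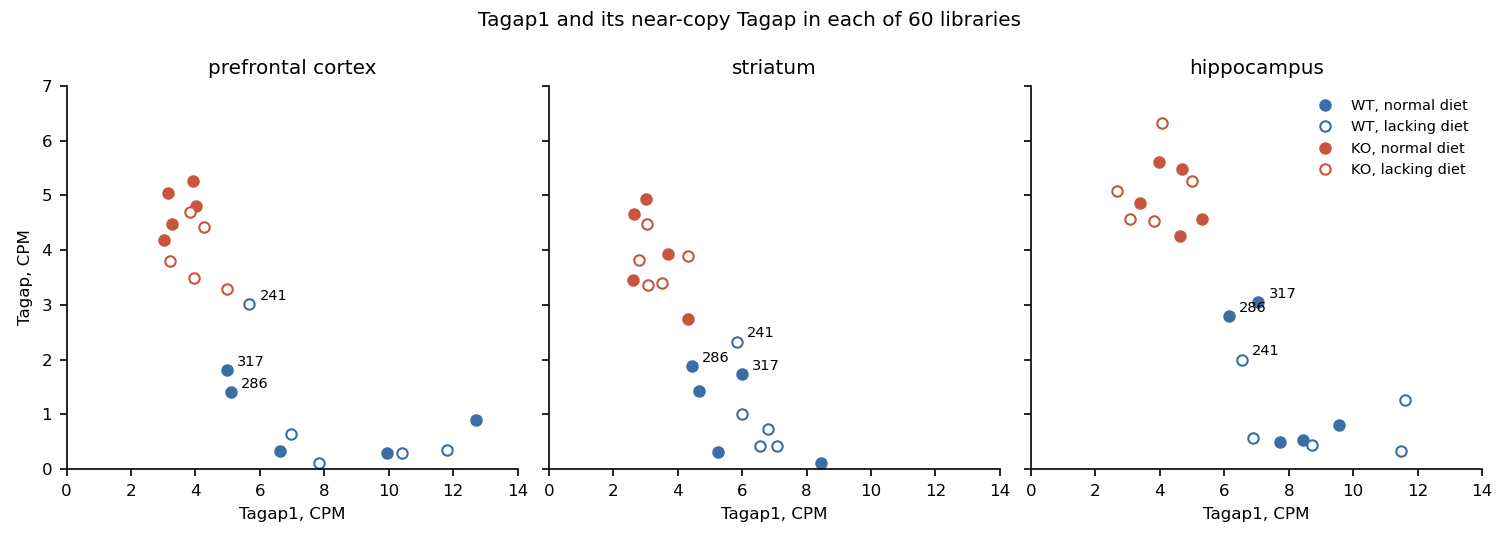
Tagap1 (x axis) against Tagap (y axis), both in CPM on linear axes, in each of 20 libraries per region. KO libraries (red) lie at high Tagap and low Tagap1, and the WT libraries (blue) of mice 241, 286 and 317, which are numbered, have higher Tagap than the remaining WT libraries in the Pfc, Str and Hip.

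The WT libraries were not uniform in this share. Tagap took 34.7%, 26.7% and 21.5% of the summed counts in the Pfc of mice 241, 317 and 286, and at most 8.33% in the Pfc of the other WT mice. In the Hip the same mice held 23.4%, 30.2% and 31.2%, against at most 9.76% in the others. In the Str they held 28.6%, 22.4% and 29.8%, and mouse 273 held 23.3%. These mice, singled out after their values were seen, belonged to both diets. Their Glo1 values lay between 34.8 and 59.5 CPM over the 3 regions, and as WT mice they help to set the WT range. Counted from the highest of the 10 WT mice, Glo1 in mice 241, 317 and 286 ranked 1, 2 and 8 in the Pfc. It ranked 5, 9 and 2 in the Str and 5, 4 and 3 in the Hip. For other members these mice did not stand apart in the same way in every region. Counted from the highest of the 10 WT mice, the Fndc1 values of mice 241, 317 and 286 ranked 1, 2 and 3 in the Str (14.8, 14.5 and 10.6 CPM), 3, 8 and 10 in the Pfc (2.17, 1.81 and 1.2 CPM) and 7, 8 and 5 in the Hip (6.27, 5.92 and 6.69 CPM). Their Tagap1 values ranked 8, 10 and 9 in the Pfc (5.67, 4.97 and 5.1 CPM), 7, 6 and 10 in the Str (5.83, 5.99 and 4.43 CPM) and 9, 7 and 10 in the Hip (6.54, 7.05 and 6.13 CPM).

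Fndc1 had higher values in KO than in WT mice in the Pfc and Str and similar values in the Hip. In the Pfc the WT libraries held 1.2, 1.46, 1.81, 1.91 and 3.06 CPM on the normal diet and 1.85, 2, 2.15, 2.17 and 2.22 CPM on the lacking diet. The KO libraries held 3.49, 4.11, 4.82, 4.87 and 6.3 CPM, and 2.99, 3.61, 4.85, 6.16 and 7.27 CPM. All KO libraries lay above all WT libraries of the same diet, and the log2 fold change was 1.28 (SE 0.179).

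In the Str, where Fndc1 was highest, it ranged from 6.23 to 14.8 CPM (median 8.79) in WT and from 11.3 to 24.8 CPM (median 16.9) in KO. The genotypes were apart on the normal diet and overlapped by the WT library of mouse 241 on the lacking diet. The log2 fold change was 0.88 (SE 0.158). In the Hip the ranges coincided, 4.93 to 8.71 CPM (median 6.61) in WT and 5.1 to 7.95 CPM (median 6.67) in KO, and the log2 fold change was -0.01 (95% interval -0.23 to 0.21). A test of the difference between regions was not made, because the same contrast chose the gene. Fndc1 shares no 75-base stretch with another annotated gene.

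Pkmyt1 had few reads, and its genotype gap rested on small counts. In the Pfc the WT libraries held 0.674, 1.38, 1.44, 1.8 and 1.85 CPM on the normal diet and 0.604, 0.845, 1.17, 1.48 and 1.61 CPM on the lacking diet. The KO libraries held 0.379, 0.465, 0.511, 0.975 and 1.03 CPM on the normal diet and 0.0782, 0.199, 0.346, 0.368 and 0.59 CPM on the lacking diet, from 1 to 10 counts each. The groups overlapped on the normal diet and were just apart on the lacking diet, with a log2 fold change over diets of -1.48 (SE 0.293).

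In the Str Pkmyt1 lay between 0 and 1.58 CPM (median 1.18) in WT and between 0 and 0.841 CPM (median 0.344) in KO, a log2 fold change of -1.59 (SE 0.358). The WT value of 0 came from 1 library on the normal diet, while the other 4 of that group held 9 to 16 counts. In the Hip Pkmyt1 did not pass the filter and overlapped between the genotypes, with medians of 0.904 CPM in WT and 0.48 CPM in KO.

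Paqr4, which overlaps Pkmyt1 on the opposite strand, had the smallest genotype difference among the members lower in KO. Its Str libraries with the normal diet held 24.8, 27.4, 28.6, 31.6 and 34 CPM (WT) and 22, 22.6, 24.1, 24.2 and 25.7 CPM (KO). The groups on the lacking diet held 28.3, 28.5, 29.1, 29.7 and 31.6 CPM (WT) and 19.8, 20.4, 21.5, 23 and 24.2 CPM (KO). The genotypes were apart on the lacking diet and overlapped by 1 KO library on the normal diet. Mean levels were 29.4 ± 2.55 CPM in WT and 22.8 ± 1.88 CPM in KO (SD, n = 10), a log2 fold change of -0.38 (SE 0.0634). In the Pfc and Hip the log2 fold changes were -0.28 (SE 0.0718) and -0.23 (SE 0.081), and in both regions the groups were apart on the lacking diet and overlapped on the normal diet.

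Abca3 and Abca17 lay on opposite sides of the WT level. In the Pfc Abca3 held 44.7, 45.4, 48.6, 50.3 and 50.4 CPM in WT and 54.1, 58, 67.7, 72.9 and 78 CPM in KO libraries on the normal diet. On the lacking diet it held 41.4, 46.7, 49.4, 49.8 and 59.2 CPM in WT and 60.8, 63.5, 69.4, 72.2 and 79.9 CPM in KO libraries. KO lay above WT on each diet, with means over diets of 48.6 ± 4.73 and 67.7 ± 8.5 CPM (SD, n = 10) and a log2 fold change of 0.47 (SE 0.0696). The difference was 0.43 (SE 0.11) in the Str and 0.32 (SE 0.0836) in the Hip, where the groups overlapped on both diets.

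Abca17 was low in every library and lower in KO. In the Pfc its WT libraries held 0.7, 0.813, 1.35, 1.66 and 2.47 CPM on the normal diet and 0.483, 0.78, 1.48, 1.58 and 1.93 CPM on the lacking diet. The KO libraries held 0, 0.31, 0.379, 0.487 and 0.511 CPM and 0, 0.0737, 0.0996, 0.184 and 0.313 CPM. The groups did not overlap on either diet, and the log2 fold change was -2.57 (SE 0.395). In the Str, where it was not tested, 6 of 10 KO libraries held 0 counts and WT libraries held 0.117 to 1.08 CPM. In the Hip the medians were 0.701 CPM in WT and 0.198 CPM in KO. Counts summed over the 10 libraries of a genotype were 57 in WT and 8 in KO in the Str, and 89 and 20 in the Hip.

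**Figure D3:**
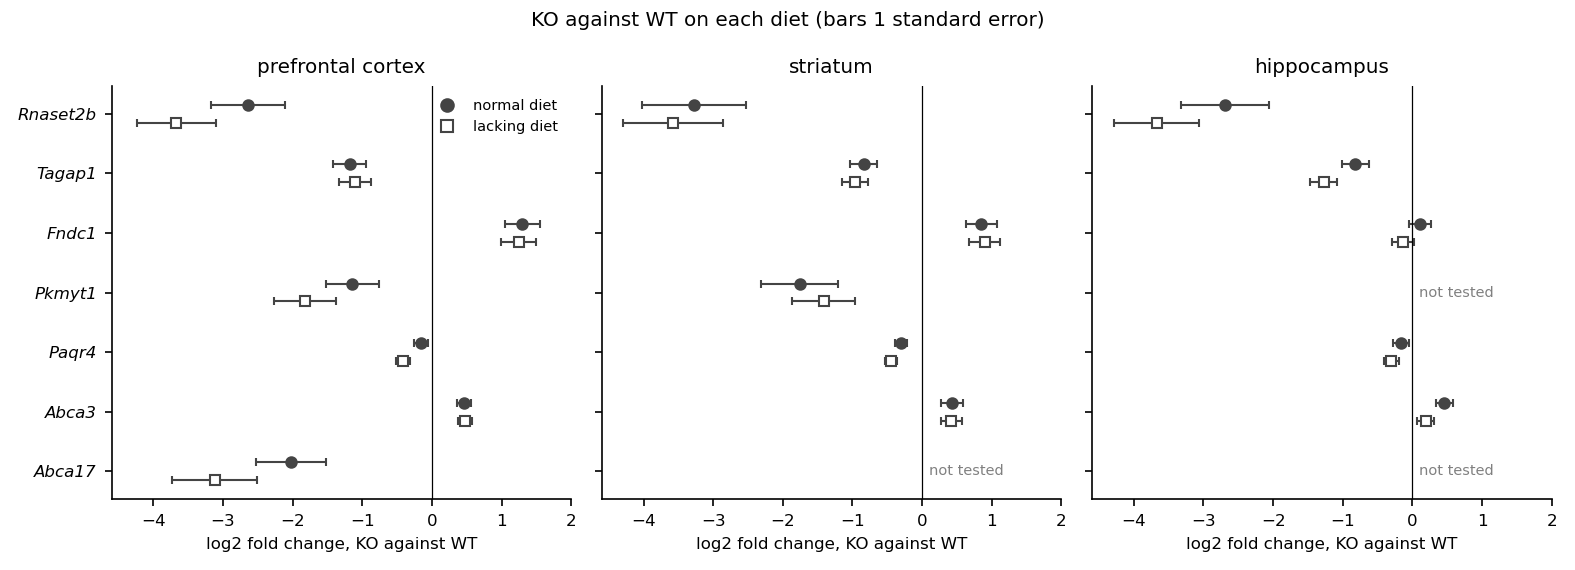
Log2 fold change of KO against WT (x axis, linear in log2 units) on the normal diet (filled circles) and the lacking diet (open squares), in each region. Bars are 1 standard error, and members not tested in a region are marked so. Rnaset2b lies between -3.67 and -2.64, Tagap1 between -1.27 and -0.82, and Fndc1 near 0 in the hippocampus.

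The number of members whose genotypes did not overlap was counted for each diet, without a test of the difference between the counts. On the normal diet, 3 of 7 tested members had all KO libraries below all WT libraries in the Pfc (0.56% of all genes tested), 1 of 6 in the Str (0.24%) and 2 of 5 in the Hip (0.478%). On the lacking diet it was 5 of 7 in the Pfc (1.04%), 4 of 6 in the Str (0.428%) and 3 of 5 in the Hip (0.709%). KO lay wholly above WT for Fndc1 and Abca3 in the Pfc on the normal (0.529% of all genes) and the lacking diet (0.681%), and for Fndc1 in the Str on the normal diet (0.218%). These counts too follow from how the genes were chosen. By edgeR, 3 members in the Pfc (0.121% of all genes), 0 in the Str (0.0601%) and 0 in the Hip (0.0299%) were past an adjusted p of 0.05 on the normal diet. On the lacking diet it was 5 (0.234%), 3 (0.128%) and 2 (0.0672%). At an unadjusted p under 0.05, 6 of 6 members in the Str (2.43% of all genes) and 3 of 5 in the Hip (7.48%) were called on the normal diet.

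Diet was independent of how the genes were chosen, and no effect of it was detected on any member. Lacking against normal diet gave 0 calls among the members in WT and in KO mice of each region (edgeR, adjusted p under 0.05), where 0% of all genes were called. DESeq2 likewise called 0 members and 0 genes in these 6 comparisons. At an unadjusted p under 0.05, each tool called 1 member in the Pfc of KO mice, where edgeR called 5.19% and DESeq2 5.36% of all genes. In the other 5 comparisons each called 0 members, against 2.27% of all genes by edgeR and 2.36% by DESeq2 in the Pfc of WT mice. These shares were 2.91% and 2.99% in WT and 1.68% and 1.86% in KO mice of the Str, and 4.03% and 4.5% in WT and 6.56% and 6.96% in KO mice of the Hip. In edgeR it was Pkmyt1, with a log2 fold change of -0.99 (95% interval -1.92 to -0.06, adjusted p = 0.941).

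The intervals differ widely in what they leave possible. For Abca3 the diet effect in the Pfc lay between -0.15 and 0.24 in WT and between -0.13 and 0.25 in KO on the log2 scale (95% intervals). For Paqr4 it lay between -0.06 and 0.33 in WT and between -0.32 and 0.08 in KO. For Rnaset2b in KO mice of the Str, where most libraries were at 0, it lay between -2.28 and 2.14, so that a large change could not have been seen at this depth.

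The genotype difference itself was not detectably different between diets. The interaction of genotype and diet gave 0 calls among the members in each region by edgeR and by DESeq2, with 0% of all genes called, and 0 members at an unadjusted p under 0.05 in either tool. At that unadjusted p, edgeR called 3.17% of all genes in the Pfc, 1.7% in the Str and 9.45% in the Hip, and DESeq2 3.3%, 1.8% and 10%. The smallest unadjusted p was 0.0851, for Paqr4 in the Pfc, with an interaction of -0.26 (95% interval -0.54 to 0.03, edgeR adjusted p = 1). For Rnaset2b the interaction was -1.03 (95% interval -2.77 to 0.71) in the Pfc, -0.30 (-2.84 to 2.24) in the Str and -0.98 (-2.99 to 1.03) in the Hip.

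Region separated Fndc1 most clearly, in both genotypes but by different amounts. In WT mice Fndc1 had means of 1.98 ± 0.496 CPM in the Pfc, 6.62 ± 1.12 CPM in the Hip and 9.47 ± 3.01 CPM in the Str (SD, n = 10). In KO mice the means were 4.85 ± 1.38, 6.54 ± 0.949 and 17.5 ± 3.73 CPM in the same order. The order of the regions was the same in both, and the ranges of neighbouring regions overlapped between the Hip and the Str in WT and between the Pfc and the Hip in KO mice.

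In a fit of all 60 libraries, averaged over the 4 groups of mice, Fndc1 was 4.16-fold higher in the Str than in the Pfc (log2 fold change 2.06, SE 0.113, edgeR adjusted p = 1.57e-24). Within the genotypes it was 4.78-fold higher in WT (2.26, SE 0.171, adjusted p = 6.22e-18) and 3.63-fold higher in KO mice (1.86, SE 0.147, adjusted p = 3.07e-17). For the Hip against the Pfc the average of 2.13-fold (1.09, SE 0.117, adjusted p = 3.01e-12) pooled 3.33-fold in WT (1.74, SE 0.176, adjusted p = 7.63e-13) with 1.36-fold in KO mice (0.44, SE 0.153, adjusted p = 0.0134). The Hip lay below the Str by -0.97 on average (SE 0.102, adjusted p = 1.17e-12), by -0.52 in WT (SE 0.146, adjusted p = 0.00191) and by -1.42 in KO mice (SE 0.143, adjusted p = 3.78e-13). The difference between these genotype values was not tested, because it is the genotype gap by which the gene was chosen. The values within 1 genotype hold part of that gap, so their adjusted p-values are not independent of the choice.

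Differences between regions were common among all genes. The counts of members called are given beside that background, and 7 genes are too few to compare the shares. Of the 7 members 3 were called between the Str and the Pfc (69.9% of all genes tested), 2 between the Hip and the Pfc (59.3%) and 4 between the Hip and the Str (66.4%). Within WT mice it was 3 (58.8% of all genes), 1 (47.3%) and 2 (54.5%), and within KO mice 1 (62.6%), 2 (48.4%) and 2 (56.9%), in the same order. Tagap1 was lower in the Str than in the Pfc (-0.32, SE 0.109, edgeR adjusted p = 0.00802) and higher in the Hip than in the Str (0.39, SE 0.108, adjusted p = 0.00132), while the Hip and the Pfc did not differ detectably (0.07, 95% interval -0.13 to 0.28). Both Tagap1 calls were made within WT mice (-0.44, adjusted p = 0.00692, and 0.47, adjusted p = 0.0043, edgeR) and neither within KO mice (-0.20, adjusted p = 0.302, and 0.31, adjusted p = 0.0969). Abca3 was lower in the Hip than in the Pfc (-0.29, SE 0.0662, adjusted p = 0.000141) and than in the Str (-0.23, SE 0.0662, adjusted p = 0.00197). Both Abca3 calls were made within KO mice (-0.37, adjusted p = 0.000764, and -0.29, adjusted p = 0.00722, edgeR) and neither within WT mice (-0.21, adjusted p = 0.0563, and -0.17, adjusted p = 0.116). For Abca3 between the Hip and the Pfc the 95% intervals overlapped, -0.55 to -0.18 in KO and -0.40 to -0.03 in WT mice. Calls within 1 genotype draw on values that the choice used, and the difference between the genotypes was not tested. The call for Abca3 between the Hip and the Str was lost without TMM scaling (-0.15, adjusted p = 0.0766).

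Abca17 was lower in the Str than in the Pfc (-1.42, SE 0.404, edgeR adjusted p = 0.0016), with -1.37 in WT (adjusted p = 0.000989) and -1.46 in KO mice (adjusted p = 0.0691). Its difference between the Hip and the Str (0.95, SE 0.412, adjusted p = 0.0374) was weak: it was called neither within WT (0.69, adjusted p = 0.126) nor within KO mice (1.22, adjusted p = 0.147), with the mouse as a block the adjusted p was 0.0527, and leaving out any of 6 mice (WT 225 and 317, KO 325, 339, 368 and 381) gave log2 fold changes of 0.72 to 0.92 and adjusted p-values of 0.052 to 0.117. Rnaset2b, Pkmyt1 and Paqr4 were not called between any regions. For Paqr4 the interval between the Str and the Pfc was -0.10 to 0.10 on the log2 scale, whereas for Rnaset2b the interval between the Hip and the Pfc was -0.61 to 0.62.

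Seen along the chromosome, the members are some of many genes before Glo1 that differed between the genotypes. Of 385 genes of the table that lie before Glo1, 27 of 221 tested were called in the Pfc (12.2%), 20 of 226 in the Str (8.85%) and 17 of 218 in the Hip (7.8%). After Glo1 on the same chromosome 2.13%, 1.56% and 0.792% of tested genes were called, and on other chromosomes 0.413%, 0% and 0.008%. Called in at least 1 region were 32 genes before Glo1, of which 7 are the members and 25 are not, and 13 were called in all 3 regions.

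**Figure D4:**
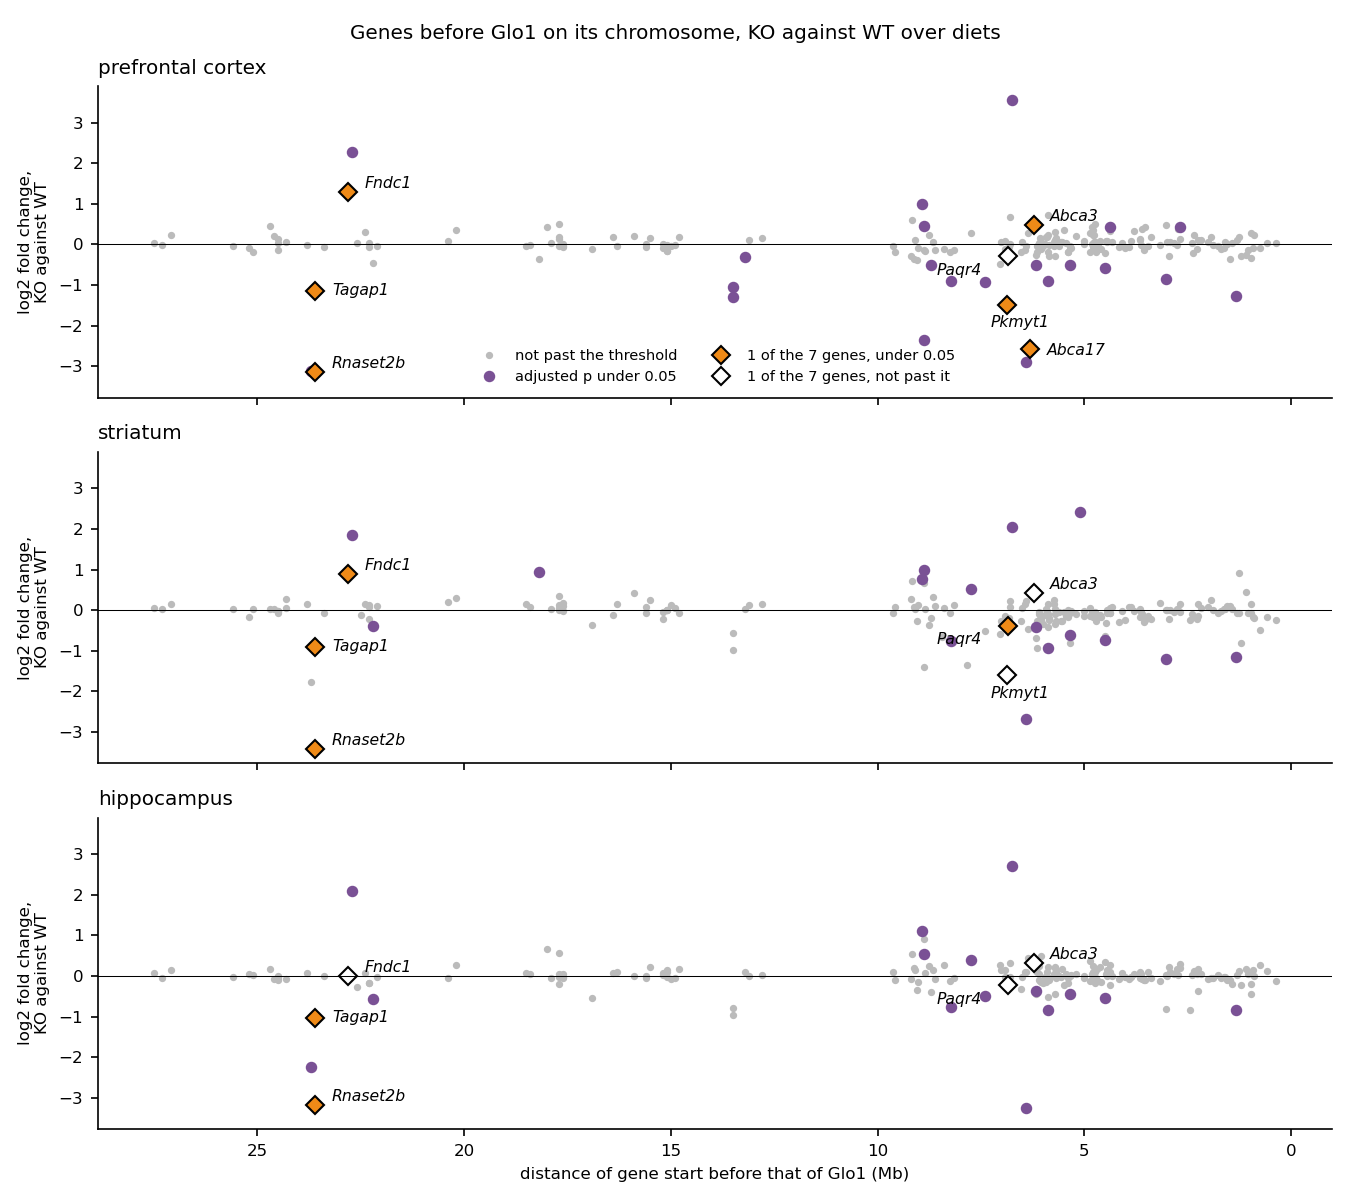
Log2 fold change of KO against WT over diets (y axis) for each tested gene before Glo1, by the distance of its lower coordinate from that of Glo1 in Mb (x axis), in each region. Members are diamonds, filled where the adjusted p was under 0.05. Genes on both sides of 0 stand among neighbours near 0, at 22 to 24 Mb and again within 10 Mb of Glo1. A few called genes lie in between, at 18.2 Mb in the striatum and at 13.2 to 13.5 Mb in the prefrontal cortex.

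Next to the members, some genes differed as much and others were too low to test. Rsph3b, which precedes Tagap1, had log2 fold changes of -3.11 (SE 0.424) in the Pfc, -1.76 (SE 0.389) in the Str and -2.24 (SE 0.434) in the Hip, and was called in the Pfc and Hip. Rnps1, which follows Abca3, was lower by smaller amounts and called in each region (-0.51, -0.41 and -0.37). Ccnf, the gene before Abca17, had values of 0.27 (SE 0.166), -0.47 (SE 0.222) and 0.44 (SE 0.207) and was not called. Tagap, which follows Fndc1, was higher in KO and called in each region (2.27, 1.85 and 2.10). Gm1604b had 0 counts in all libraries. Ttll2, 1520401A03Rik and Kremen2, the remaining neighbours by start, had at most 9 counts in a library and were not tested. Thus Abca17 and Abca3 are flanked by Ccnf without a call and by Rnps1 with a call lower in KO.

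Among relatives of the members, Tagap was the only other gene called between the genotypes. Among 11 genes of the progestin and adipoQ receptor family in the table, Paqr4 alone was called between the genotypes, in the Str, where the median log2 fold change was 0.06 over the family and -0.002 over all genes. Of the ABC transporters of subfamily A, 11 of 16 were tested in the Pfc and 10 in the Str and Hip, and the calls were Abca3 and Abca17 in the Pfc, at a median of 0.02 over the family and 0.001 over all genes. Of 10 genes with fibronectin type III domain names, 7 were tested and Fndc1 alone was called, in the Pfc (median of the list -0.09) and in the Str (median 0.05). Of 10 genes that set the activity of CDK1, 5 were tested in the Pfc and Pkmyt1 alone was called there (median of the list 0.10), while Wee1, the other kinase that restrains CDK1, had a log2 fold change of 0.12 (SE 0.0719, edgeR adjusted p = 0.474). No gene of these lists was called for diet.

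Between regions the relatives were often called, with patterns of their own. Fndc3b resembled Fndc1 in being higher in the Str than in the Pfc (1.08, SE 0.0554, edgeR adjusted p = 9.19e-26), and Fndc9 was higher too (1.93, SE 0.121, adjusted p = 9.97e-22). Fndc4 was lower there (-0.88, SE 0.0412, adjusted p = 1.17e-27). Abca1, a cholesterol exporter, was higher in the Str than in the Pfc (0.65, SE 0.0399, adjusted p = 2.92e-22), whereas Abca3 did not differ detectably (-0.06, 95% interval -0.19 to 0.07).

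Markers of the cells in which some members are best known ranged from 0 to levels above those of several members. Of the T cell genes Cd3e, Cd3g and Cd8a, the median was 0 CPM in each region and genotype, with at most 4 counts in a library for Cd3e. Cd4, which the T cell list also held, reached a median of 133 CPM in WT and 140 CPM in KO libraries of the Str, and 1.22 and 1.27 CPM in the Pfc. Cd4 in the Hip had medians of 0.496 CPM in WT and 0.333 CPM in KO libraries. Among the mitotic genes, Mki67 had medians of 3.66 CPM in WT and 3.33 CPM in KO libraries of the Pfc, 10 and 10.6 CPM in the Str, and 6.1 and 5.23 CPM in the Hip. Top2a had medians of 1.45 and 1.25 CPM, 5.48 and 5.43 CPM, and 3.53 and 3.04 CPM in the same order, and Cdk1, the kinase that Pkmyt1 restrains, had medians of 0.107 to 0.353 CPM over the regions and genotypes. Among the marker lists for glia, Slc1a3 of astrocytes (-0.33, SE 0.0623) and P2ry12 of microglia (-0.38, SE 0.0798) were called between the genotypes, both in the Pfc and both lower in KO. The 4 microglial genes summed to 177 to 221 CPM in KO and 214 to 272 CPM in WT libraries of the Pfc, and the 4 astrocyte genes to 1325 to 1761 and 1448 to 2144 CPM. Their part in the Pfc values of the members was not tested.

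The genes whose values followed each member most closely over the 60 libraries were found by the Pearson correlation of log2 CPM after the mean of each region was subtracted. This leaves in the genotype gap by which the members were chosen, so a high value with another gene that differs between the genotypes follows from the choice, and the libraries of a genotype also share a batch. The correlation was highest with Gnptg for Rnaset2b (0.86), Rnps1 for Tagap1 (0.86), Abca3 for Fndc1 (0.69), Rps2 for Paqr4 (0.79) and Glo1 for Abca17 (0.77), all on chromosome 17. For Pkmyt1 it was highest with Scara3 (0.65) on chromosome 14 and for Abca3 with Ckmt1 (0.76) on chromosome 2.

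With the mean of each of the 12 groups subtracted instead, which removes the genotype gap, the same pairs had correlations of 0.39 for Rnaset2b with Gnptg, 0.50 for Tagap1 with Rnps1, 0.45 for Fndc1 with Abca3, 0.56 for Paqr4 with Rps2 and -0.10 for Abca17 with Glo1. Pkmyt1 with Scara3 had 0.60 and Abca3 with Ckmt1 0.80. The partners were picked for the highest correlation in these same libraries, so these values are a description and no separate test. Between the neighbours Rnaset2b and Tagap1 the correlation was 0.72 with region means and -0.09 with group means subtracted.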

How the data were processed

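The authors deposited whole-number read counts per gene and RPKM values for 21999 genes in 60 libraries from poly(A)-selected RNA, read as single 75-base reads. STAR 2.7.1a, HTSeq 0.9.1 and the build mm10 are named, per the submitters' processing notes; the annotation, strand setting and handling of multiply mapped reads are not given in the sources used here. The deposited RPKM values served to compare levels between genes and in alternatives only.

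Counts were fitted per region (20 libraries, 4 groups) with edgeR 4.0.16 in R 4.3.3: filterByExpr (minimum count 10, minimum total 15), TMM scaling, quasi-likelihood tests, two-sided, with Benjamini-Hochberg adjustment over all genes tested and a threshold of 0.05. Regions were compared in a fit of all 60 libraries, whose TMM factors also scale the printed CPM. A standard error is the absolute log2 fold change divided by the square root of F, and 95% intervals are normal intervals from it. Shared sequence was counted in GENCODE vM21 transcripts with Python 3.11.15, and coding sequences were aligned with Biopython 1.88. Of the genes in the table, 21460 were placed by GENCODE symbol, 14 by RefSeq symbol, and 525 were not placed. The fits were tested on simulated counts.

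The members and gene lists were chosen with earlier results of these data known. The text names the 7 members, Glo1, the nearest other gene on each side of a member, the genes most correlated with each member, and genes of the related and marker lists that were called; some marker results are not reported here. Mouse numbers mark the same animal across regions: deviations from the group means correlated at a mean r of 0.0468 within a mouse (60 pairs of libraries) and -0.0111 between mice (240 pairs). Alternatives were DESeq2 1.42.0, limma 3.58.1 on log2(RPKM + 1) and log2(RPKM + 0.1), no TMM, no filter, a mean of at least 1 CPM, RNA integrity as a covariate, only the groups compared, the mouse as a block, leaving out each mouse, and, added after seeing the data, regions within each genotype.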

Additional observations from a re-analysis of the deposited data

Results flagged for a closer look

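Of 84 groups of 5 libraries (7 genes in 12 groups), 3 held a value set apart from the other 4 by more than 0.71 of the range of the group. A rate of 1 in 20 gives 4.2, but that rate is for normally distributed values. Some groups here held mostly counts of 0, and the groups share mice, so 4.2 is only a rough guide. Rnaset2b in the striatum of KO mice on the lacking diet was 0.398 CPM in mouse 242, from 5 counts, while the others held 0 to 0.0884 CPM. In the striatum of KO mice on the normal diet it was 0.384 CPM in mouse 390, also from 5 counts, while the others held 0 to 0.101 CPM. Abca17 in the hippocampus of WT mice on the lacking diet was 2.12 CPM in mouse 225, from 24 counts, while the others held 0.321 to 0.733 CPM.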

How the results depend on the processing

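Without genes under a mean of 1 CPM, Rnaset2b, Pkmyt1 and Abca17 were not tested, and the members called for KO against WT over diets went from 6 to 3 in the prefrontal cortex and from 2 to 1 in the hippocampus. With limma on log2(RPKM + 1) the members called between the hippocampus and the striatum went from 4 to 2. Leaving out each mouse gave 6 to 7 calls in the prefrontal cortex, 4 to 5 in the striatum and 2 to 2 in the hippocampus for KO against WT, 3 to 3, 2 to 3 and 3 to 4 between regions (striatum against prefrontal cortex, hippocampus against prefrontal cortex, hippocampus against striatum), and 0 to 0 for diet and interaction. With the mouse as a replicate block, the members called between regions were 3, 2 and 3 in that order; the block ended the call of Abca17 between the hippocampus and the striatum and changed no other. Chosen after seeing the data, the same region contrasts within 1 genotype gave 1 member between the hippocampus and the prefrontal cortex and 2 between the hippocampus and the striatum in WT mice only, and 1 between the striatum and the prefrontal cortex and 2 between the hippocampus and the striatum in KO mice only. Without WT mouse 272, Paqr4 was called between the hippocampus and the prefrontal cortex (-0.12, edgeR adjusted p = 0.034). With limma on RPKM, Abca3 was not called between the hippocampus and the striatum (adjusted p = 0.12 and 0.125), nor Abca17 with a pseudocount of 1 (adjusted p = 0.0944). Of 405 log2 fold changes of KO against WT of the members under settings other than a left-out mouse, 404 kept their sign. This is no separate support, because the settings refit the libraries in which this contrast chose the genes. For the contrast over diets, the setting of only the groups compared repeats the main fit. No alternative reversed a called value. Depth limits Rnaset2b, Pkmyt1 and Abca17, whose KO libraries hold few or 0 counts.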
